A study of Homo sapiens with 8 samples.

Results

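Transcripts of 10 m6A reader genes were measured in leukaemia cells in which the RNA demethylase ALKBH5 had been lowered. The genes were taken by name from the deposited expression table: the YTH-domain genes YTHDF1, YTHDF2, YTHDF3, YTHDC1 and YTHDC2, the insulin-like growth factor 2 mRNA-binding protein genes IGF2BP1, IGF2BP2 and IGF2BP3, and the ribonucleoprotein genes HNRNPA2B1 and HNRNPC. All 10 were among the 26830 gene symbols of the table. All 10 were also among the 14302 genes tested, those with at least 1 TPM (a transcript's share of its library, corrected for length and scaled to a fixed total) in at least 2 libraries, although IGF2BP1 passed that filter through its MOLM-13 libraries alone.

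m6A is a methyl mark on adenosines inside mRNA. Writer enzymes built around METTL3 and METTL14 add it, ALKBH5 and FTO remove it, and reader proteins bind the marked RNA and decide its splicing, export, translation or decay. In acute myeloid leukaemia, YTHDF2 and the IGF2BP proteins have been described as readers on which the leukaemic cells depend, YTHDF2 as a decay factor and the IGF2BP proteins as stabilisers of their target mRNAs. The HNRNP proteins lack a YTH domain and bind sites that the mark makes accessible.

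Polyadenylated RNA of NOMO-1 and MOLM-13, human acute myeloid leukaemia lines with a rearranged KMT2A (MLL) gene, had been sequenced in 4 groups of 2 libraries. These were NOMO-1 cells carrying 1 lentiviral hairpin against ALKBH5 (shALKBH5, hairpin 1; replicates 2 and 3), NOMO-1 cells carrying the control lentivirus shNS (replicates 1 and 3), MOLM-13 cells carrying the same ALKBH5 hairpin (replicates 1 and 3) and MOLM-13 cells carrying shNS (replicates 1 and 3). All 4 groups were infected and selected with puromycin, for 4 days by the series text and for 1 week by the sample protocols, which also name a virus against FTO and drug treatments that no sample label lists. Whether replicates were separate cultures is not stated, and p-values here reflect the library-to-library spread alone, which may be technical. With 1 hairpin, an effect of the hairpin apart from ALKBH5 cannot be told apart from the knockdown.

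ALKBH5 (chromosome 17, 18183078 to 18209954) stood at 15.1 and 14.2 TPM in the NOMO-1 shALKBH5 libraries, against 70.4 and 71.8 TPM with shNS, and at 9.45 and 7.35 TPM in the MOLM-13 shALKBH5 libraries, against 45.7 and 45.8 TPM with shNS. Of 8 myeloid markers, 6 reached 1 TPM in both libraries of each NOMO-1 group (FLT3 and MPO did not) and 8 in each MOLM-13 group. Summed, they stood at 587 to 617 TPM in NOMO-1 shALKBH5, against 639 to 640 TPM in NOMO-1 shNS, and at 849 to 1145 TPM in MOLM-13 shALKBH5, against 1449 to 1530 TPM in MOLM-13 shNS. In MOLM-13 the markers went both ways: MPO had 19.3 and 16.4 TPM with shALKBH5, against 384 and 456 TPM with shNS, and FLT3 98.3 and 39.1 TPM, against 238 and 229 TPM, whereas CD33, SPI1 and CSF1R had higher TPM in both shALKBH5 libraries than in both shNS libraries. The erythroid gene HBA1 and the epithelial genes EPCAM and KRT5 were listed at 0 in all 8 libraries. The part of the marker levels in the results was not tested. The replicates of MOLM-13 shALKBH5 were the least alike: the log2 difference within this group had an SD over genes of 0.6, and within the others of 0.161 to 0.193. Summed over 12 interferon-stimulated genes, the MOLM-13 shALKBH5 libraries held 1623 TPM in replicate 1 and 94.1 TPM in replicate 3, against 177 and 165 TPM in MOLM-13 shNS, and its part in the reader values was not tested.

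ALKBH5 knockdown went with lower transcript levels of IGF2BP2, HNRNPA2B1 and HNRNPC in both lines. IGF2BP2 was 5.17-fold lower in NOMO-1 and 1.77-fold lower in MOLM-13, HNRNPA2B1 was 2.21-fold lower in NOMO-1 and 2.28-fold lower in MOLM-13, and HNRNPC 1.91-fold and 1.78-fold lower. In bulk RNA, fewer cells expressing a gene and less of its RNA per cell cannot be told apart. YTHDF3 was 2.17-fold higher in NOMO-1, while its MOLM-13 libraries lay on both sides of their controls. In MOLM-13, IGF2BP1 was 2.39-fold, YTHDC1 1.68-fold, YTHDC2 1.6-fold and YTHDF2 1.39-fold lower as well. By limma with Benjamini-Hochberg adjustment over all genes tested (threshold 0.05), 1 of the 10 readers rose and 3 fell in NOMO-1, where 28.6% of all genes were called higher and 15% lower. In MOLM-13, 0 rose and 7 fell, where 10.6% of all genes were called higher and 31.2% lower. With 1 library left out, 3 to 6 readers were called in NOMO-1, the 6 without MOLM-13 shALKBH5 replicate 1 or replicate 3. In MOLM-13, 4 were called without MOLM-13 shNS replicate 1 or replicate 3, 5 without any 1 of the NOMO-1 libraries and 10 without MOLM-13 shALKBH5 replicate 1. The count over all 14302 genes moved as well. In NOMO-1 it was 6242 with all libraries, 9745 and 9739 without MOLM-13 shALKBH5 replicate 1 and 3, and 3490 to 5013 without another. In MOLM-13 it was 5972 with all libraries, 2665 and 2912 without MOLM-13 shNS replicate 1 and 3, 4714 to 4892 without a NOMO-1 library and 9439 without MOLM-13 shALKBH5 replicate 1.

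TPM is a share of a library, so each library was also rescaled by the median of its gene ratios to the mean library. This moved the median of all genes from 0.158 to 0 (log2) in the NOMO-1 knockdown and from -0.18 to 0.0288 in the MOLM-13 knockdown. After rescaling, the same contrasts called 1 reader higher and 6 lower in NOMO-1 (23.7% and 26% of all genes) and 0 higher and 7 lower in MOLM-13 (24.1% and 26.4% of all genes). IGF2BP2, HNRNPA2B1 and HNRNPC fell under both scalings in both lines.

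**Figure D1:**
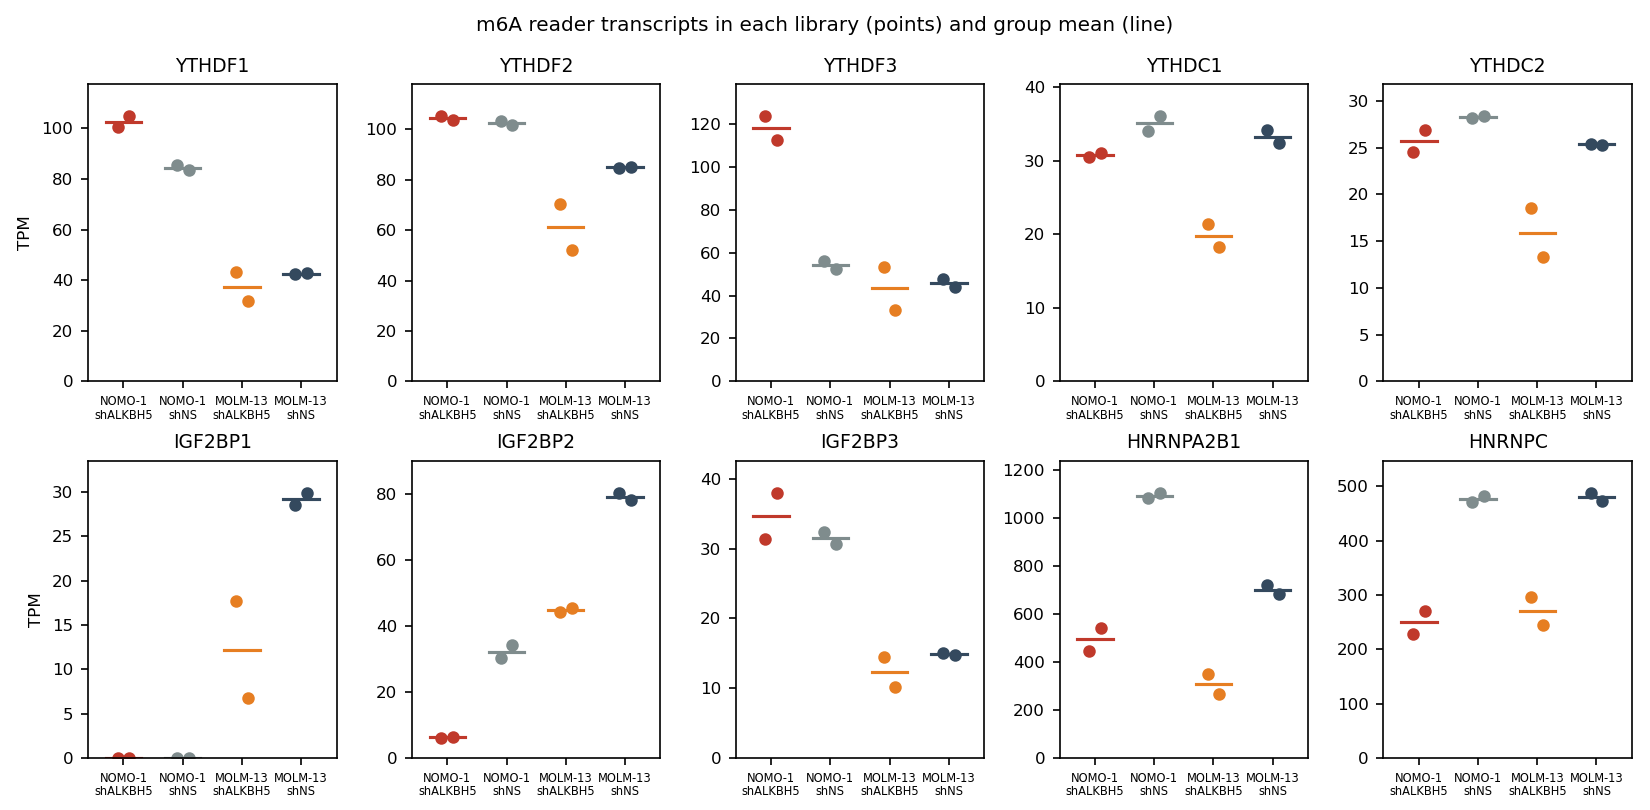
TPM of each reader gene (y axes, linear, from 0) in the 8 libraries, by group; points are libraries and lines are group means (n = 2). IGF2BP2, HNRNPA2B1 and HNRNPC sit lower in the shALKBH5 libraries of both lines, YTHDF3 sits higher in NOMO-1 shALKBH5 at 112 and 123 TPM, and IGF2BP1 is at or under 0.04 TPM in NOMO-1.

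**Figure D2:**
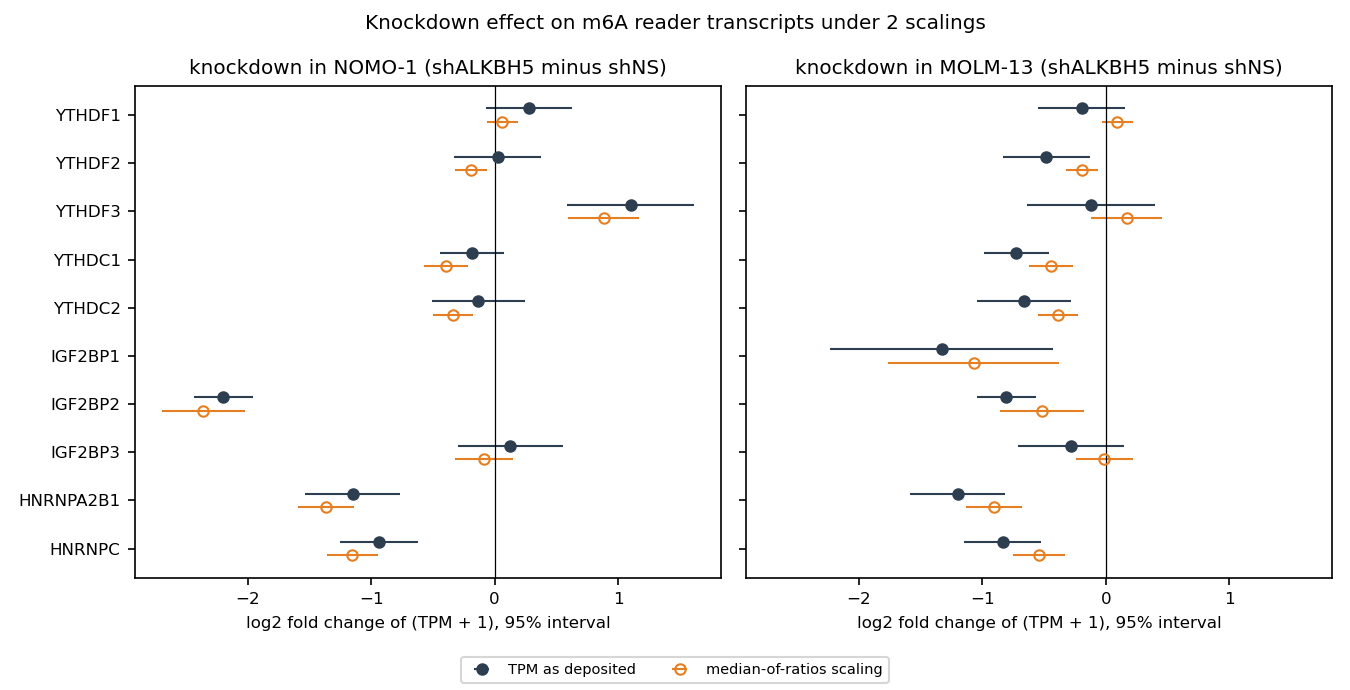
Log2 fold change of (TPM + 1), shALKBH5 minus shNS (x axis), with 95% intervals from limma, for the reader genes in NOMO-1 (left) and MOLM-13 (right); filled points use TPM as deposited and open points the median-of-ratios scaling. IGF2BP1 is left out of the NOMO-1 panel because all 4 NOMO-1 libraries are at or under 0.04 TPM; after rescaling YTHDC1 is at -0.39 in NOMO-1 and -0.44 in MOLM-13.

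The control libraries show the reader repertoire of each line. HNRNPA2B1 and HNRNPC, abundant nuclear proteins that package pre-mRNA, had the highest levels, at 1093 ± 16.7 and 477 ± 8.36 TPM in NOMO-1 and at 700.3 ± 26.2 and 481 ± 10.4 TPM in MOLM-13 (mean ± SD, n = 2). In NOMO-1 shNS the order continued with YTHDF2, YTHDF1 and YTHDF3, then YTHDC1, IGF2BP2 and IGF2BP3, whose neighbouring library ranges overlapped, and then YTHDC2. In MOLM-13 shNS it continued with YTHDF2, IGF2BP2, YTHDF3, YTHDF1, YTHDC1, IGF2BP1, YTHDC2 and IGF2BP3, with no overlap between neighbours. With shALKBH5 in NOMO-1, YTHDF3 came next after the HNRNP genes, above YTHDF2 and YTHDF1, whose ranges overlapped, and IGF2BP2 came below YTHDC2. With shALKBH5 in MOLM-13, the ranges of HNRNPA2B1 and HNRNPC overlapped. The range of YTHDF3 overlapped those of YTHDF2, IGF2BP2 and YTHDF1, which did not overlap one another. The IGF2BP genes thus set the lines apart: IGF2BP1 was listed at 0 and 0.01 TPM in NOMO-1 shNS and at 28.6 and 29.9 TPM in MOLM-13 shNS.

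Between controls, NOMO-1 against MOLM-13, 3 readers were called higher and 2 lower by limma, 1 of the 2 being IGF2BP1, which passed the filter on low values through MOLM-13 alone and whose call is no support, where 40.6% of all genes were called higher and 19.2% lower. YTHDF1 was 1.99-fold higher (log2 fold change 0.97, limma adjusted p = 0.00148), IGF2BP3 2.11-fold higher (1.03, limma adjusted p = 0.00279) and HNRNPA2B1 1.56-fold higher (0.64, limma adjusted p = 0.0128). The HNRNPA2B1 call was lost without any 1 of the 4 control libraries (log2 0.60 to 0.68, limma adjusted p = 0.0539 to 0.0745). IGF2BP2 was 2.46-fold lower (log2 fold change -1.27, limma adjusted p = 8.3e-05). Without MOLM-13 shALKBH5 replicate 1 or replicate 3, 8 readers were called, IGF2BP1 counted, beside 11202 of all 14302 genes. The rescaling moved the median of all genes from 0.285 to 0.0292 (log2) in this contrast. It added YTHDC1 (-0.22, limma adjusted p = 0.0387) and HNRNPC (-0.31, limma adjusted p = 0.0176) as lower in NOMO-1, giving 3 readers higher and 4 lower, IGF2BP1 counted, where 34.4% of all genes were called higher and 31.5% lower.

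The YTHDF proteins are cytoplasmic paralogs that bind the mark through the YTH domain. YTHDF1 (chromosome 20, 63195429 to 63216234, minus strand, GRCh38 in GENCODE 29) has been tied to translation, YTHDF2 (chromosome 1, 28736621 to 28769775, plus strand) to decay through the CCR4-NOT deadenylase, and YTHDF3 (chromosome 8, 63168553 to 63212786, plus strand) to both. YTHDF3 had 123 and 112 TPM in NOMO-1 shALKBH5, against 56.1 and 52.6 TPM in NOMO-1 shNS. It had 53.4 and 33.2 TPM in MOLM-13 shALKBH5, against 47.7 and 44.0 TPM in MOLM-13 shNS. Both NOMO-1 knockdown libraries thus lay above both controls, whereas the MOLM-13 knockdown libraries enclosed theirs.

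In NOMO-1 the YTHDF3 log2 fold change was 1.10 (SE 0.213, 95% interval 0.59 to 1.62, limma adjusted p = 0.00768). In MOLM-13 it was -0.12 (95% interval -0.63 to 0.40, limma adjusted p = 0.697), and it was 0.17 after rescaling. The effect was larger in NOMO-1 than in MOLM-13 by 1.22 (SE 0.301, limma adjusted p = 0.0255), a call lost without any 1 of the NOMO-1 or MOLM-13 shNS libraries (1.15 to 1.29, limma adjusted p = 0.0765 to 0.096). The NOMO-1 call was lost without NOMO-1 shNS replicate 3 (1.06, limma adjusted p = 0.0541) and without NOMO-1 shALKBH5 replicate 2 (1.04, limma adjusted p = 0.0581), with a range over its 14 alternatives of 2.48e-05 to 0.0581. Without MOLM-13 shALKBH5 replicate 1 the MOLM-13 value was -0.46 (limma adjusted p = 0.00532) and without replicate 3 it was 0.22 (limma adjusted p = 0.0765).

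YTHDF2 had 105 and 104 TPM in NOMO-1 shALKBH5, against 103 and 102 TPM in NOMO-1 shNS, and 70.5 and 52.0 TPM in MOLM-13 shALKBH5, against 84.7 and 85.0 TPM in MOLM-13 shNS. The NOMO-1 libraries were nearly level, and the MOLM-13 knockdown libraries both lay below their controls. YTHDF2 fell in MOLM-13 (log2 fold change -0.48, SE 0.145, limma adjusted p = 0.0389), a call kept in 6 of 15 alternatives (limma adjusted p = 6.2e-05 to 0.168). It was lost without any 1 of the NOMO-1 libraries or MOLM-13 shNS libraries (-0.48 each, limma adjusted p = 0.0763 to 0.152). Without MOLM-13 shALKBH5 replicate 3 the value was -0.26. In NOMO-1 the value was 0.03 as deposited (limma adjusted p = 0.919) and -0.19 after rescaling (limma adjusted p = 0.0252), with 0.0252 to 1 over the 14 alternatives.

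YTHDF1 had 100.4 and 105 TPM in NOMO-1 shALKBH5, against 85.5 and 83.4 TPM in NOMO-1 shNS, and 43.0 and 31.8 TPM in MOLM-13 shALKBH5, against 42.3 and 42.6 TPM in MOLM-13 shNS. The NOMO-1 groups did not overlap and the MOLM-13 groups did. Its log2 fold changes, 0.28 (95% interval -0.07 to 0.63, limma adjusted p = 0.172) in NOMO-1 and -0.19 (-0.55 to 0.16, limma adjusted p = 0.327) in MOLM-13, did not pass, and the MOLM-13 value was 0.09 after rescaling. Without MOLM-13 shALKBH5 replicate 1 or replicate 3 the NOMO-1 value passed (0.28, limma adjusted p = 0.00161 each), and without replicate 1 the MOLM-13 value passed too (-0.41, limma adjusted p = 0.000775).

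Ratios between genes of a library do not depend on its scaling. YTHDF3 made up 37.5% and 35% of the summed YTHDF TPM in NOMO-1 shALKBH5, against 22.9% and 22.1% in NOMO-1 shNS. The ratio of YTHDF3 to YTHDF2 was 1.17 and 1.08 in NOMO-1 shALKBH5, against 0.543 and 0.516 in NOMO-1 shNS, and 0.758 and 0.638 in MOLM-13 shALKBH5, against 0.563 and 0.517 in MOLM-13 shNS. In each line both knockdown libraries thus held more YTHDF3 per YTHDF2 than both controls. The ratio of YTHDF3 to YTHDF1 was 1.23 and 1.07 in NOMO-1 shALKBH5, against 0.656 and 0.631 in NOMO-1 shNS, and 1.24 and 1.04 in MOLM-13 shALKBH5, against 1.13 and 1.03 in MOLM-13 shNS, where the ranges overlapped.

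YTHDF3-AS1, an RNA gene on the opposite strand next to the YTHDF3 start, was chosen after its values were seen. It had 3.27 and 3.43 TPM in NOMO-1 shALKBH5, against 1.36 and 0.66 TPM in NOMO-1 shNS (log2 fold change 1.14, limma adjusted p = 0.0173). The call was lost with a pseudocount of 0.1 (log2 fold change 1.71, limma adjusted p = 0.0551) and after rescaling (0.92, limma adjusted p = 0.0577). It was also lost without NOMO-1 shNS replicate 3, shALKBH5 replicate 2 or shALKBH5 replicate 3 (0.88 to 1.16), and was kept in 9 of 14 alternatives. In MOLM-13 YTHDF3-AS1 had 0.92 and 1.67 TPM with shALKBH5, against 0.26 and 0.88 TPM with shNS, and did not pass.

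**Figure D3:**
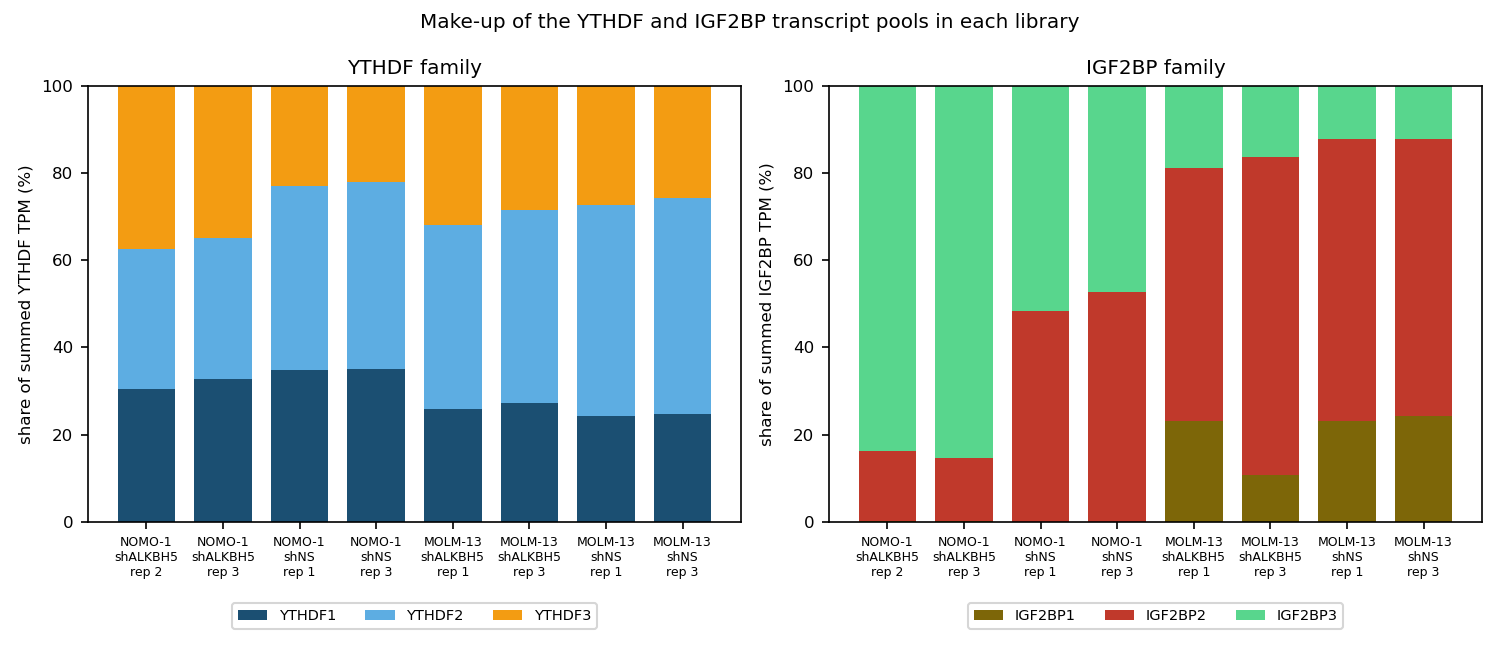
Share of the summed TPM of the YTHDF family (left) and the IGF2BP family (right) held by each member in each library (y axes, percent); bars are single libraries, grouped by line with shALKBH5 left of shNS. IGF2BP2 holds 16.1% and 14.5% of the IGF2BP TPM in NOMO-1 shALKBH5 and 48.4% and 52.6% in NOMO-1 shNS, and YTHDF3 holds its largest share in NOMO-1 shALKBH5.

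YTHDC1 (chromosome 4, 68310387 to 68350089, minus strand) is the nuclear YTH protein, tied to splicing and export of marked RNA. It had 30.4 and 31.0 TPM in NOMO-1 shALKBH5, against 34.1 and 36.0 TPM in NOMO-1 shNS, and 21.4 and 18.2 TPM in MOLM-13 shALKBH5, against 34.1 and 32.3 TPM in MOLM-13 shNS. The knockdown libraries lay below their controls in both lines, further so in MOLM-13. YTHDC1 fell in MOLM-13 (log2 fold change -0.72, SE 0.108, limma adjusted p = 0.00341), and the call was lost when MOLM-13 was fitted alone (limma adjusted p = 0.0615; 0.000151 to 0.0615 over 15 alternatives). In NOMO-1 the value was -0.18 (limma adjusted p = 0.217), and it passed after rescaling (-0.39, limma adjusted p = 0.00589), as it did without MOLM-13 shALKBH5 replicate 1 or replicate 3 (-0.18, limma adjusted p = 0.0215 and 0.0217).

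YTHDC2 (chromosome 5, 113513683 to 113595285, plus strand) is an RNA helicase with a YTH domain, required for meiosis in mice. It had 24.6 and 26.9 TPM in NOMO-1 shALKBH5, against 28.2 and 28.4 TPM in NOMO-1 shNS, and 18.5 and 13.3 TPM in MOLM-13 shALKBH5, against 25.4 and 25.3 TPM in MOLM-13 shNS. It was lower without overlap in both lines. In MOLM-13 YTHDC2 fell (log2 fold change -0.66, SE 0.157, limma adjusted p = 0.0174), a call lost without MOLM-13 shNS replicate 1 (-0.66, limma adjusted p = 0.0922) or replicate 3 (-0.66, limma adjusted p = 0.0883). It was also lost with the line fitted alone (limma adjusted p = 0.119) and with array weights (limma adjusted p = 0.053), and it passed in 11 of 15 alternatives (limma adjusted p = 0.000164 to 0.119). Without MOLM-13 shALKBH5 replicate 3 the value was -0.43. In NOMO-1 it stood at -0.13 (limma adjusted p = 0.545) and after rescaling at -0.34 (limma adjusted p = 0.00669).

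The difference between the lines in YTHDC1 depended on the scaling. It was 0.54 (SE 0.152, limma adjusted p = 0.0377) as deposited and 0.05 (95% interval -0.21 to 0.31, limma adjusted p = 0.744) after rescaling. It was also lost without any 1 of the NOMO-1 or MOLM-13 shNS libraries (0.50 to 0.58, limma adjusted p = 0.104 to 0.14). The ratio of YTHDC1 to YTHDC2 was 1.24 and 1.15 in NOMO-1 shALKBH5, against 1.21 and 1.27 in NOMO-1 shNS, and 1.15 and 1.37 in MOLM-13 shALKBH5, against 1.34 and 1.28 in MOLM-13 shNS, so the ratios overlapped in both lines.

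The IGF2BP proteins bind target mRNAs through KH domains and stabilise them. IGF2BP2 (chromosome 3, 185643739 to 185825056, minus strand), the member expressed in many adult tissues, had 6.04 and 6.43 TPM in NOMO-1 shALKBH5, against 30.4 and 34.1 TPM in NOMO-1 shNS. It had 44.3 and 45.5 TPM in MOLM-13 shALKBH5, against 80.4 and 78.1 TPM in MOLM-13 shNS. In both lines the knockdown libraries were close together and well below their controls.

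IGF2BP2 fell by 2.20 on the log2 scale in NOMO-1 (limma adjusted p = 0.00024) and by 0.81 in MOLM-13 (limma adjusted p = 0.00171), each with an SE of 0.0983. The fall was larger in NOMO-1, with a difference of -1.39 (SE 0.139, 95% interval -1.73 to -1.06, limma adjusted p = 0.00258). Both calls and the difference passed in every alternative run, including the rescaling, where the values were -2.36 in NOMO-1, -0.52 in MOLM-13 and -1.84 for their difference. IGF2BP2 is the reader with the largest fall in NOMO-1, close to that of ALKBH5 itself (-2.21).

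IGF2BP1 (chromosome 17, 48997412 to 49055650, plus strand), an oncofetal protein rare in adult tissue, had 17.7 and 6.73 TPM in MOLM-13 shALKBH5, against 28.6 and 29.9 TPM in MOLM-13 shNS. It was listed at 0.04 and 0.03 TPM in NOMO-1 shALKBH5, against 0 and 0.01 TPM in NOMO-1 shNS, too low to compare. Both MOLM-13 knockdown libraries were lower, and they differed from each other more than for the other readers. IGF2BP1 fell in MOLM-13 by 1.33 on the log2 scale (SE 0.372, limma adjusted p = 0.0303), a call kept in 7 of 15 alternatives (limma adjusted p = 4.27e-05 to 0.152). It was lost without any 1 of the NOMO-1 or MOLM-13 shNS libraries (-1.36 to -1.30, limma adjusted p = 0.0605 to 0.124). The value was -1.97 without MOLM-13 shALKBH5 replicate 1 and -0.69 without replicate 3.

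IGF2BP3 (chromosome 7, 23310209 to 23470467, minus strand), the other oncofetal member, did not pass in either line. It had 31.4 and 38.0 TPM in NOMO-1 shALKBH5, against 32.4 and 30.7 TPM in NOMO-1 shNS, and 14.4 and 10.1 TPM in MOLM-13 shALKBH5, against 15.1 and 14.8 TPM in MOLM-13 shNS. The NOMO-1 groups overlapped. In MOLM-13 both knockdown libraries were below both controls, replicate 1 just below and replicate 3 further. The log2 fold changes were 0.13 (95% interval -0.30 to 0.56, limma adjusted p = 0.607) in NOMO-1, -0.08 after rescaling, and -0.28 (-0.71 to 0.15, limma adjusted p = 0.246) in MOLM-13. Without MOLM-13 shALKBH5 replicate 1 the MOLM-13 value passed (-0.52, limma adjusted p = 0.0112).

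IGF2BP3 needs care, since 44.0% of the 50-base windows of its annotated transcripts also occur, in the same or the opposite direction, in transcripts of other genes. MALSU1, a mitochondrial ribosome assembly gene on the opposite strand that was chosen after its values were seen, shares 34.6% of them. MALSU1 did not pass in either knockdown (log2 fold change -0.24 in NOMO-1 and -0.29 in MOLM-13, limma adjusted p = 0.116 and 0.07). It passed in 5 of 14 alternatives in NOMO-1 and in 3 of 15 in MOLM-13, and after rescaling it stood at -0.45 in NOMO-1 (limma adjusted p = 0.00331) and near 0 in MOLM-13. It was higher in NOMO-1 than in MOLM-13 controls (1.15, limma adjusted p = 0.000171), as IGF2BP3 was. The library kit keeps strand, but the strand setting of the quantification is not given in the sources used here, so reads of the pair may be mixed. YTHDF2 shared 11.1% of its windows with a processed pseudogene, IGF2BP2 8.03% with 3 pseudogenes, HNRNPC 6.57% with 9 genes and HNRNPA2B1 1.52%, and the other 5 readers shared 0.

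IGF2BP3 made up 83.8% and 85.5% of the summed IGF2BP TPM in NOMO-1 shALKBH5, against 51.6% and 47.3% in NOMO-1 shNS. The ratio of IGF2BP2 to IGF2BP3 was 0.193 and 0.169 in NOMO-1 shALKBH5, against 0.937 and 1.11 in NOMO-1 shNS, and 3.07 and 4.5 in MOLM-13 shALKBH5, against 5.33 and 5.29 in MOLM-13 shNS. Within each line, both knockdown libraries had a lower ratio than both controls.

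HNRNPA2B1 (chromosome 7, 26173057 to 26201529, minus strand) has been described as a nuclear reader that aids primary microRNA processing. It had 445 and 542 TPM in NOMO-1 shALKBH5, against 1081 and 1105 TPM in NOMO-1 shNS, and 349 and 265 TPM in MOLM-13 shALKBH5, against 719 and 682 TPM in MOLM-13 shNS. Every knockdown library was far below every control of its line. HNRNPA2B1 fell by 1.15 on the log2 scale in NOMO-1 (SE 0.158, limma adjusted p = 0.00226) and by 1.20 in MOLM-13 (SE 0.158, limma adjusted p = 0.00228).

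HNRNPC (chromosome 14, 21209136 to 21269494, minus strand) binds uridine tracts that m6A can unfold. It had 228 and 271 TPM in NOMO-1 shALKBH5, against 471 and 483 TPM in NOMO-1 shNS, and 296 and 245 TPM in MOLM-13 shALKBH5, against 488 and 474 TPM in MOLM-13 shNS. As for HNRNPA2B1, the groups of each line were far apart. HNRNPC fell in NOMO-1 by 0.94 (SE 0.13, limma adjusted p = 0.00228) and in MOLM-13 by 0.84 (SE 0.13, limma adjusted p = 0.00395).

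All 4 of these calls passed in every alternative run. The effects of the lines differed by 0.05 for HNRNPA2B1 (95% interval -0.49 to 0.59, limma adjusted p = 0.885) and by -0.10 for HNRNPC (-0.54 to 0.34, limma adjusted p = 0.695). After rescaling, the falls were larger in NOMO-1 for HNRNPA2B1 (difference -0.46, limma adjusted p = 0.0381) and for HNRNPC (-0.61, limma adjusted p = 0.0126). The ratio of HNRNPA2B1 to HNRNPC was 1.95 and 2.0 in NOMO-1 shALKBH5, against 2.29 and 2.29 in NOMO-1 shNS, and 1.18 and 1.08 in MOLM-13 shALKBH5, against 1.47 and 1.44 in MOLM-13 shNS. HNRNPA2B1 was thus lower relative to HNRNPC in the knockdown libraries of both lines.

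The promoters of the 3 readers that fell in both lines are shown because these genes moved together, from 250 bases before to 50 after the RefSeq start (GRCh38.p14, RefSeq table; minus strand, written 5′ to 3′ along the gene), at chr7:26200697-26200996 for HNRNPA2B1, chr14:21269393-21269692 for HNRNPC and chr3:185824993-185825292 for IGF2BP2. Capitals mark CCAAT boxes (CCAAT) and GC boxes (GGGCGG), on either strand.
HNRNPA2B1: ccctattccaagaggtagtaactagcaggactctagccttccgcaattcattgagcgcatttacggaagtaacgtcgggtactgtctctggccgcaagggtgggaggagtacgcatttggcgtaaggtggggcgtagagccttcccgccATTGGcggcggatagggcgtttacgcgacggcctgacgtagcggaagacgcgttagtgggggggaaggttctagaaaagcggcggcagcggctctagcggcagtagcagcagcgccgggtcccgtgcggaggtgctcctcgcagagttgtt
HNRNPC: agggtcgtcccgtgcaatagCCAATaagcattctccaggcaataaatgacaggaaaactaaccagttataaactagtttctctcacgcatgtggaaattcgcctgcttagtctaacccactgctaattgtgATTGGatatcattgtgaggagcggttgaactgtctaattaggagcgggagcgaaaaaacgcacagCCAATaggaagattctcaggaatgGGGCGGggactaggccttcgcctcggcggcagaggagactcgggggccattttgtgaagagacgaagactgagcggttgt
IGF2BP2: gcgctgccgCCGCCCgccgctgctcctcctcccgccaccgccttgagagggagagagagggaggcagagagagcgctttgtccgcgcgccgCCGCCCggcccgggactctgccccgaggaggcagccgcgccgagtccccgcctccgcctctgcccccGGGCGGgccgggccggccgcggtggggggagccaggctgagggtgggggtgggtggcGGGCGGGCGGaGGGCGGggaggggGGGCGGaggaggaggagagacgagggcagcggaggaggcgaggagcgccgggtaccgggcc

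HNRNPA2B1 held 1 CCAAT box and 0 GC boxes, HNRNPC 3 CCAAT boxes and 1 GC box, and IGF2BP2 0 CCAAT boxes and 7 GC boxes, of which a pair overlap. Over 35116 RefSeq promoters of 300 bases, 34.6% held a CCAAT box and 45% a GC box. None of the 3 windows held an E-box (CACGTG, in 7.26% of promoters) or an ETS core (CCGGAA, in 17.2%). They held 29, 15 and 38 CG dinucleotides, against a median of 14. RefSeq gives IGF2BP2 another start, with 3 CG dinucleotides, 1 CCAAT box and 0 GC boxes, and the TPM do not say which start was used. Of the 10 readers, the windows of 8 were searched. IGF2BP1 had no entry in that table, and YTHDF3, on chromosome 8, was left out. No motif was shared by all 3 windows.

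HNRNPA2B1 lies head to head with CBX3 (chromosome 7, 26201162 to 26213356, plus strand), a heterochromatin protein gene named here after its values were seen, and their RefSeq starts are 697 bases apart on opposite strands. CBX3 had 262 and 282 TPM in NOMO-1 shALKBH5, against 407 and 402 TPM in NOMO-1 shNS, and 125 and 84.6 TPM in MOLM-13 shALKBH5, against 250.4 and 239 TPM in MOLM-13 shNS. It fell with its neighbour in NOMO-1 (log2 fold change -0.57, limma adjusted p = 0.0404) and in MOLM-13 (-1.25, limma adjusted p = 0.00293). The NOMO-1 call was lost without any 1 of the NOMO-1 or MOLM-13 shNS libraries (-0.62 to -0.52, limma adjusted p = 0.0779 to 0.176). The ratio of HNRNPA2B1 to CBX3 was 1.7 and 1.93 in NOMO-1 shALKBH5, against 2.65 and 2.75 in NOMO-1 shNS, and 2.8 and 3.14 in MOLM-13 shALKBH5, against 2.87 and 2.85 in MOLM-13 shNS. The ratio was lower after knockdown in NOMO-1 and overlapped in MOLM-13.

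The letters GGACT, the commonest context of the mark, were counted in the longest coding transcript of each reader. HNRNPA2B1 held 0 in 3664 bases, while the other readers ranged from 0.303 per kb in YTHDF1 to 1.36 per kb in IGF2BP2. Over 11927 tested genes with a coding transcript the median was 0.935 per kb (quartiles 0.571 and 1.4). Among the readers, HNRNPA2B1 thus stood lowest and IGF2BP2 highest. HNRNPC, which like them fell in both lines, held 1.11 per kb. IGF2BP2 and HNRNPC lay within the quartiles of the tested genes. A match is not evidence of a methylated site.

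Genes that work with the readers were counted in lists by role. Each list count is to be read beside the shares of all genes. As deposited, 28.6% were called higher and 15% lower in NOMO-1, and 10.6% and 31.2% in MOLM-13. After rescaling the shares were 23.7% and 26% in NOMO-1 and 24.1% and 26.4% in MOLM-13. A count near these shares is not particular to its list. Of 20 other hnRNP genes, 0 rose and 13 fell in NOMO-1 (median log2 fold change -0.62) and 0 rose and 19 fell in MOLM-13 (median -1.01), against medians over all genes of 0.158 and -0.18. After rescaling 18 and 17 of them fell. Named by the smallest p, HNRNPA1, HNRNPD and HNRNPM stood at -0.89, -0.76 and -0.79 in NOMO-1 and at -1.49, -1.24 and -1.15 in MOLM-13, and all 6 values passed. Of 4 genes of primary microRNA processing, with which HNRNPA2B1 works, 2 fell in NOMO-1 and 4 in MOLM-13, and after rescaling 3 in each. The nuclease gene DROSHA fell by 1.52 in NOMO-1 and by 1.44 in MOLM-13.

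Of 10 tested genes of the CCR4-NOT deadenylase recruited by YTHDF2, 2 rose and 1 fell in NOMO-1 (median -0.10), and 0 rose and 9 fell in MOLM-13 (median -0.80). After rescaling it was 3 higher and 5 lower in NOMO-1 and 0 and 8 in MOLM-13. The deadenylase gene CNOT6L had 23.8 and 25.6 TPM in NOMO-1 shALKBH5, against 16.1 and 15.0 TPM in NOMO-1 shNS, and 12.5 and 8.15 TPM in MOLM-13 shALKBH5, against 34.6 and 32.8 TPM in MOLM-13 shNS. It rose in NOMO-1 (log2 fold change 0.64, limma adjusted p = 0.0329) and fell in MOLM-13 (-1.64, limma adjusted p = 0.00136), with a difference of 2.28 (limma adjusted p = 0.00337). The NOMO-1 call was lost without any 1 of the NOMO-1 or MOLM-13 shNS libraries (0.59 to 0.69, limma adjusted p = 0.0658 to 0.153). CNOT7, another deadenylase gene, stood at -0.62 in NOMO-1 without passing (limma adjusted p = 0.0523) and fell by 1.54 in MOLM-13 (limma adjusted p = 0.00246). The NOMO-1 value passed in 5 of 14 alternatives (limma adjusted p = 7.93e-05 to 0.186), among them the rescaling (-0.83, limma adjusted p = 0.000966) and the fits without MOLM-13 shALKBH5 replicate 1 or 3 (-0.62, limma adjusted p = 7.98e-05 and 7.93e-05).

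HRSP12 and RNase P/MRP proteins take part in the cleavage of RNA bound by YTHDF2. Of 10 tested genes for them, 1 rose and 1 fell in NOMO-1 and 0 rose and 5 fell in MOLM-13. After rescaling it was 1 and 4 in NOMO-1 and 0 and 4 in MOLM-13. POP1 fell by 0.79 in NOMO-1 and by 0.71 in MOLM-13, the MOLM-13 call being lost without MOLM-13 shNS replicate 1 (-0.70, limma adjusted p = 0.05002), with array weights (-0.71, limma adjusted p = 0.124) and with the line alone (-0.71, limma adjusted p = 0.0606). RPP40 fell by 1.25 in MOLM-13 and stood at -0.24 in NOMO-1 without passing (limma adjusted p = 0.394). The NOMO-1 value passed in 4 of 14 alternatives (limma adjusted p = 0.0171 to 0.716), among them the rescaling (-0.44, limma adjusted p = 0.0171) and the fits without MOLM-13 shALKBH5 replicate 1 or 3 (-0.24, limma adjusted p = 0.0181 and 0.018). Of 9 splicing, export and 3′-end partners of YTHDC1, 0 rose and 3 fell in NOMO-1 and 0 rose and 6 fell in MOLM-13, and after rescaling 6 fell in each line. The splicing factor SRSF1 fell by 0.73 and 1.41 and the cleavage factor CPSF6 by 0.61 and 0.97, in NOMO-1 and MOLM-13 in turn. The SRSF1 call in NOMO-1 was lost without NOMO-1 shNS replicate 1 or 3 or shALKBH5 replicate 2 (-0.74 to -0.61, limma adjusted p = 0.0543 to 0.0651). Of 13 eIF3 subunits, tied to translation by YTHDF1, 0 rose and 6 fell in NOMO-1 and 0 rose and 9 fell in MOLM-13. After rescaling it was 0 and 7 in NOMO-1 and 1 and 5 in MOLM-13. As deposited, EIF3A stood at -0.62 and -1.22 and EIF3G at -0.91 and -1.21, NOMO-1 first.

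IGF2BP cofactors were represented by 3 genes, of which 1 fell in NOMO-1 and 2 in MOLM-13, and after rescaling 2 in each. The nuclear matrix protein gene MATR3 fell in both, by 1.21 and 1.46. Of 7 genes of the oncofetal axis around IGF2BP1 and IGF2BP3, 3 were tested, and no count is given because HMGA2 reached 1 TPM in MOLM-13 shNS alone. HMGA2, an oncofetal chromatin protein gene, had 0.11 and 0.32 TPM in MOLM-13 shALKBH5, against 2.32 and 2.12 TPM in MOLM-13 shNS.

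Of 10 tested mRNAs reported as reader targets in leukaemia, 1 rose and 5 fell in NOMO-1 (median -0.80) and 0 rose and 8 fell in MOLM-13 (median -1.13). After rescaling 0 rose and 7 fell in NOMO-1, and 0 rose and 6 fell in MOLM-13. TNFRSF1B, a TNF receptor gene and reported YTHDF2 target, fell by 2.24 in NOMO-1 and by 1.22 in MOLM-13. The cell-cycle kinase gene CDK6 fell by 1.01 and 2.12, and the replication helicase gene MCM5 by 1.99 and 2.39, NOMO-1 first. All 6 values passed in every alternative run. Whether a reader bears on these mRNAs was not tested.

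Of 9 m6A writer genes, 0 rose and 2 fell in NOMO-1 and 0 rose and 6 fell in MOLM-13. After rescaling 6 fell in NOMO-1 and 3 in MOLM-13. Among all genes, 15% and 31.2% were called lower as deposited, NOMO-1 first, and 26% and 26.4% after rescaling. METTL14, the RNA-binding partner of METTL3, fell by 0.94 in MOLM-13 (limma adjusted p = 0.00934) and stood at -0.14 in NOMO-1 (limma adjusted p = 0.588). The NOMO-1 value passed in 4 of 14 alternatives (limma adjusted p = 0.0183 to 0.772), among them the rescaling (-0.35, limma adjusted p = 0.0183) and the fits without MOLM-13 shALKBH5 replicate 1 or 3 (-0.14, limma adjusted p = 0.035 and 0.0345). The MOLM-13 call was lost without MOLM-13 shNS replicate 1 or 3 (-0.91 and -0.96, limma adjusted p = 0.064 and 0.054). CBLL1, a writer-complex gene, fell by 0.68 in NOMO-1 and by 1.09 in MOLM-13, and its NOMO-1 call was lost without any 1 of the NOMO-1 libraries (-0.76 to -0.61, limma adjusted p = 0.0595 to 0.103). Of 9 other proposed m6A-binding protein genes, 3 rose and 2 fell in NOMO-1 (1 and 5 after rescaling) and 0 rose and 7 fell in MOLM-13 (1 and 6 after rescaling). FXR2, an FMR1 relative, had 64.0 and 64.8 TPM in NOMO-1 shALKBH5, against 23.0 and 23.2 TPM in NOMO-1 shNS, a rise of 1.44 on the log2 scale (limma adjusted p = 0.000377). Its MOLM-13 value was 0.22 (limma adjusted p = 0.142), and the difference between lines was 1.22 (limma adjusted p = 0.00362). The MOLM-13 value passed after rescaling (0.50, limma adjusted p = 0.00249) and without MOLM-13 shALKBH5 replicate 3 (0.32, limma adjusted p = 0.00509), 2 of 15 alternatives (limma adjusted p = 0.00249 to 0.435). RBMX, a splicing regulator gene, fell by 0.72 in NOMO-1 and by 1.60 in MOLM-13, and its NOMO-1 call was lost without NOMO-1 shNS replicate 3 or shALKBH5 replicate 2 (-0.60 and -0.57, limma adjusted p = 0.106 and 0.102).

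**Figure D4:**
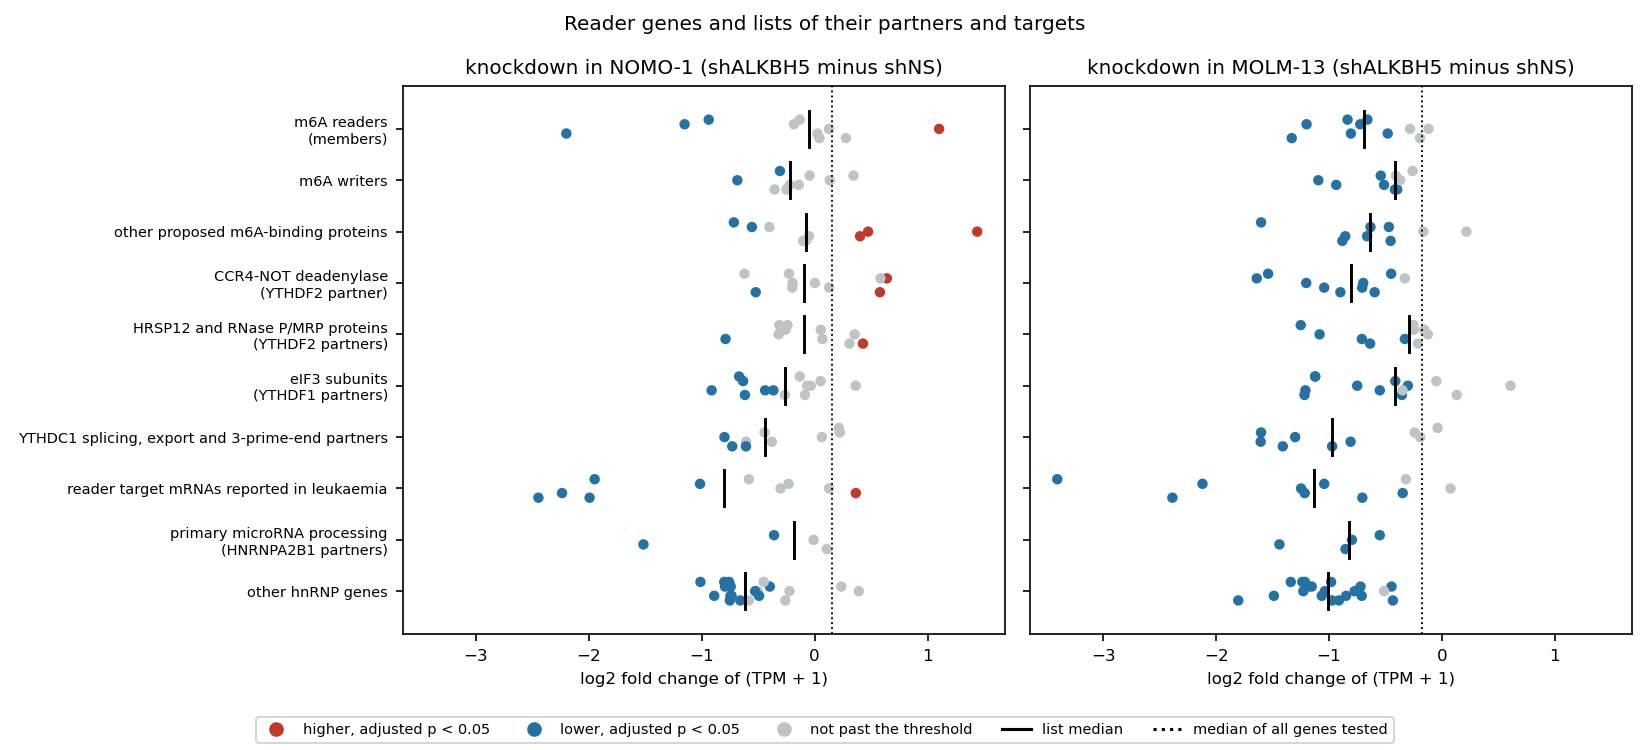
Log2 fold change of (TPM + 1), shALKBH5 minus shNS (x axis), for every tested gene of the reader list and of 9 lists of related genes (rows) in NOMO-1 (left) and MOLM-13 (right); points are genes, coloured by the limma call, solid lines are list medians and the dotted line is the median of all genes tested. The other hnRNP genes have medians of -0.62 and -1.01, left of the dotted line at 0.158 and -0.18.

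Between lines, YTHDF3 and YTHDC1 were called higher and IGF2BP2 lower, 2 and 1 of the 10 readers, for the NOMO-1 effect minus the MOLM-13 effect, where 29.7% of all genes were called higher and 4.9% lower. The median of all genes for this difference was 0.417 as deposited and -0.014 after the rescaling. After rescaling YTHDF3 was called higher and IGF2BP2, HNRNPA2B1 and HNRNPC lower, 1 and 3 readers, where 18.5% of all genes were called higher and 17.1% lower. IGF2BP2 was the reader that passed in all 13 alternatives of this comparison, while YTHDF3 passed in 7 and YTHDC1 in 5. Over the libraries left out in turn, the difference was -1.47 to -1.31 for IGF2BP2, 0.89 to 1.56 for YTHDF3 and 0.43 to 0.65 for YTHDC1. For IGF2BP1 a difference is no support, since its NOMO-1 libraries were at or under 0.04 TPM and it passed the filter through MOLM-13 alone.

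Across the 8 libraries, likeness of pattern was taken as Pearson's r of log2(TPM + 1), a description over libraries that share their groups and their scaling. The most alike pair of readers was YTHDF1 and IGF2BP3 (r = 0.992), both high in NOMO-1, followed by YTHDC1 and YTHDC2 (r = 0.97). The reader least like IGF2BP2 was YTHDF3 (r = -0.916). Among all genes tested, the gene most like IGF2BP2 was CCND2 (r = 0.997), most like YTHDF3 FAM220A (r = 0.996), most like HNRNPA2B1 ZC3H15 (r = 0.999) and most like HNRNPC PTPN11 (r = 0.995).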

How the data were processed

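Per the labels, polyadenylated RNA was sequenced after a strand-keeping library preparation. The authors deposited 1 table of TPM for 8 libraries; the tools named are STAR and RSEM with GRCh38, per the submitters' processing notes. Not given in the sources used here are tool versions, the annotation and whether counting used strand. Depth cannot be recovered from TPM and is unknown, so counting intervals are left out. Columns were matched to samples by line, lentivirus and replicate number, the column letter E being read as shALKBH5.

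limma 3.58.1 (R 4.3.3) was run on log2(TPM + 1) over 14302 genes (at least 1 TPM in at least 2 libraries) with a mean per group over all 8 libraries, empirical Bayes moderation with an intensity trend, 4 residual and 2.29 prior degrees of freedom, two-sided tests and p-values adjusted after Benjamini-Hochberg across the full table, with 0.05 as threshold. The pseudocount makes fold changes of low genes too small, and an interval is the limma 95% interval. With 2 libraries against 2, an exact permutation test cannot go below 0.333, so none was used. Ratios and shares are of TPM within a library. The spread is pooled over groups although MOLM-13 shALKBH5 varied most, which can make p-values of MOLM-13 too small and those of NOMO-1 too large. The readers and the lists of related genes were chosen with earlier results of these data known; other genes were named as the 3 of each list with the smallest p in either knockdown, of which some are printed. Alternatives were a pseudocount of 0.1, no filter, median-of-ratios scaling, no trend, array weights, each line alone, a replicate block in MOLM-13 and leaving out each library. The test was checked on simulated data. Coordinates and transcripts are from GENCODE 29. A window of 50 bases counted as shared if it or its reverse complement was found in a transcript of another gene. Drawing used matplotlib 3.10.9 in Python 3.11.15.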

Additional observations from a re-analysis of the deposited data

Results flagged for a closer look

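Of the readers, 3 were picked out because the knockdown effect differed between the lines by limma's test of the difference itself (NOMO-1 effect minus MOLM-13 effect, log2). For IGF2BP2 the difference was -1.39 (limma adjusted p = 0.00258). For YTHDF3 it was 1.22 (limma adjusted p = 0.0255). For YTHDC1 it was 0.54 (limma adjusted p = 0.0377), and after median-of-ratios scaling 0.05 (limma adjusted p = 0.744; 0.00109 to 0.744 over its 13 alternatives). Groups of 2 libraries are too small to look for single libraries that stand apart.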

How the results depend on the processing

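IGF2BP2, HNRNPA2B1 and HNRNPC passed in both lines in all alternatives run. Readers past the threshold numbered 4 in NOMO-1 (7 with median-of-ratios scaling), 7 in MOLM-13 (3 with the line alone) and 3 for the difference between lines. Between controls they numbered 5 (8 with array weights or controls only), IGF2BP1 counted, whose call is no support. With median-of-ratios scaling the summed level of the 10 readers was 882 in NOMO-1 shALKBH5 (1166 TPM as deposited), 1709 in NOMO-1 shNS (1938), 1091 in MOLM-13 shALKBH5 (824) and 1672 in MOLM-13 shNS (1536). That scaling turned the sign of these log2 values: in NOMO-1, YTHDF2 (-0.19) and IGF2BP3 (-0.084); in MOLM-13, YTHDF1 (0.093), YTHDF3 (0.169) and MALSU1 (2.72e-05); for the difference, YTHDF1 (-0.032), IGF2BP3 (-0.074), HNRNPA2B1 (-0.46) and ALKBH5 (-0.33); between controls, YTHDF2 (-0.030), YTHDF3 (-0.057), YTHDC1 (-0.22) and YTHDC2 (-0.142). Over the libraries left out in turn, signs differed for IGF2BP3 in NOMO-1 (-0.0073 to 0.262), YTHDF1 (-0.407 to 0.018) and YTHDF3 (-0.455 to 0.217) in MOLM-13, the difference for HNRNPA2B1 (-0.150 to 0.246), HNRNPC (-0.237 to 0.035) and ALKBH5 (-0.0456 to 0.278), and HNRNPC between controls (-0.034 to 0.0104). In NOMO-1 the groups share only 1 replicate number, and no replicate block was fitted there. In MOLM-13 same-numbered libraries had deviations correlated at 0.0606 (2 pairs), and with the number as a replicate block 7 readers passed, as without it. Of all genes, 6242 passed in NOMO-1 (9123 alone, 9712 with array weights) and 5972 in MOLM-13 (1684 alone, 2818 with array weights, 6534 with the block). The causes were not tested. The unknown depth limits what can be said of IGF2BP1 in NOMO-1. A count model, meant for a table of counts, was not run on these TPM.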
